A study of Arabidopsis thaliana with 12 samples.

Results

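Major latex protein-like genes encode small proteins of the Bet v 1 superfamily. They were taken by name, as 7 Arabidopsis loci: AT4G23670, AT4G23680, AT1G14930, AT1G14940, AT1G14950, AT1G14960 and AT1G24020. A locus was kept where the platform's annotation table lists a probe set for that gene alone. This left 6 genes with 1 probe set each, of 13513 single-gene probe sets in the table and 22801 on the array. AT1G24020 (MLP423) is not analysed here. The choice started from AT4G23670, which stood among the largest rises in the BLJ line against its control. The values that chose it are its levels on BLJ and control arrays; the other loci were chosen by family name. Its levels on BLJ arrays are therefore a description with no test, as is every member's difference between the BLJ line and the control.

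The arrays are single-colour Affymetrix ATH1 arrays of green fluorescent cells sorted from root tips of ecotype C24 seedlings, with a stated age of 5 days. All 12 arrays come from plants that carry J0571, a GAL4 enhancer trap line whose GFP is seen in cortex and endodermis, together the ground tissue. The BLJ, JKD and SCR lines also carry a UAS copy of the named transcription factor, which GAL4 drives in those cells, and the control is J0571 alone in an otherwise wild-type background. Each group has 3 arrays labelled as biological replicates, and how many independent transformants stand behind a line is not stated in the labels. In RNA from many cells at once, fewer cells that express a gene and less of its RNA per cell cannot be told apart.

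Bet v 1 proteins fold around a large cavity that binds hydrophobic ligands. The abscisic acid receptors of the PYR/PYL family have the same fold. Major latex proteins were first described in the latex of opium poppy, and in Arabidopsis the relative MLP43 has been linked to abscisic acid responses and drought tolerance. AT4G23670 and AT4G23680 are direct neighbours on chromosome 4, and AT1G14930, AT1G14940, AT1G14950 and AT1G14960 follow each other on chromosome 1 with 0 annotated genes between them in RefSeq's TAIR10.1 annotation. No separate biochemical role is given here for any of these 6 members.

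Pearson's r between any 2 arrays, across the probe sets tested, was 0.942 to 0.993. The probe sets of the driven factors were not raised in their own lines: BLJ (AT1G14580) lay at 0.789 to 0.828 in the BLJ line against 0.911 to 0.946 in the controls, and JKD (AT5G03150) at 0.831 to 0.845 in the JKD line against 0.837 to 0.900 in the controls. Whether these probe sets detect the construct transcripts is not known here, and the SCR probe set is unnamed in the table used, so the lines are called by their labels. The 5 measured cortex genes had summed levels of 5.45 to 5.73 for BLJ and 4.92 to 5.14 for JKD. The sums were 4.79 to 5.01 for SCR and 4.34 to 4.87 in the controls. The brightest of these genes, AT1G09750, weighs most in the sums, with means of 2.15 for BLJ and 1.37 in the controls. Of the others, AT3G21670 and AT1G62510 had higher means for BLJ than in the controls, and AT4G22160 and AT1G62500 lower means. Of 12 endodermis genes 3 were measured, with sums of 7.81 to 12.3 for BLJ, 10.8 to 13.6 for JKD, 8.50 to 11.4 for SCR and 10.02 to 12.8 in the controls. Levels are given after quantile normalization unless another scale is named.

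AT4G23670 was high on BLJ arrays and near the low end of the scale everywhere else. It had 1.59, 1.35 and 1.90 on BLJ arrays, 0.768, 0.799 and 0.818 on JKD arrays, 0.900, 0.673 and 0.855 on SCR arrays and 0.755, 0.745 and 0.814 on control arrays, in replicate order. The lowest BLJ array lay above the highest of the 9 other arrays, 0.900 on SCR 1. The group means were 1.61 ± 0.278 for BLJ, 0.795 ± 0.0252 for JKD, 0.809 ± 0.120 for SCR and 0.771 ± 0.0373 in the controls (SD, n = 3 each). The BLJ mean was 2.09 times the control mean, 2.03 times the JKD mean and 1.99 times the SCR mean.

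On the log2 scale, where 0.703 was added to each value before the logarithm, the BLJ line minus the control was 0.65 for AT4G23670, the BLJ line minus the JKD line 0.62 and the BLJ line minus the SCR line 0.61. The offset reduces these differences, and without it they were 1.05, 1.01 and 0.99. On the deposited values they were 0.67, 0.72 and 0.66. Over the settings and left-out arrays that were run, the BLJ minus control difference stayed between 0.50 and 1.05. Because the gene was chosen for its BLJ level, these values carry no test.

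The JKD and SCR arrays did not lead to the choice of AT4G23670, but the control arrays were part of it. Its differences from the control share values with the choice, so their p-values are not independent of it. The SE comes from the spread of all groups, the BLJ arrays included. The JKD line minus the control was 0.02 ± 0.07 (SE), with a 95% interval of −0.13 to 0.18 and an adjusted p of 0.893 in limma's fit over all 15922 probe sets tested. The SCR line minus the control was 0.03 ± 0.07, with an interval of −0.12 to 0.19 (limma adjusted p = 0.854). The JKD line minus the SCR line, a comparison with neither BLJ nor control arrays, was −0.01 ± 0.07, with an interval of −0.16 to 0.14 (limma adjusted p = 0.979). In the order of levels, the BLJ line came first, and the SCR line, the JKD line and the control followed with arrays that overlapped. Outside the BLJ line the gene averaged 0.792, near the minimum of 0.735 that a probe set needed to be tested. At this level a difference is not readily seen. These intervals therefore do not show that the gene is unchanged in the JKD and SCR lines.

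**Figure D1:**
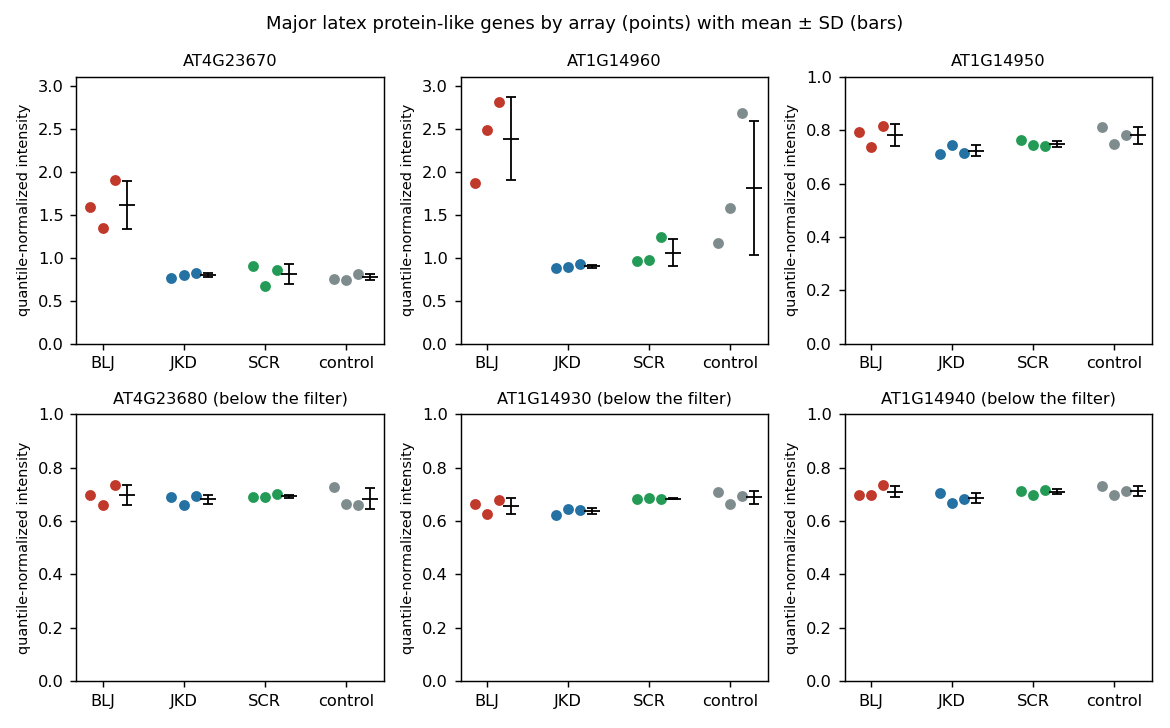
Quantile-normalized intensity (vertical axes, linear, from 0) of the 6 genes on the 12 arrays by group. Points are arrays in replicate order and bars are means ± SD (n = 3); the 3 BLJ arrays of AT4G23670 lie between 1.35 and 1.90, above every other array, while the 4 dim genes stay between 0.624 and 0.817.

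AT1G14960 was high on BLJ arrays, low on JKD arrays, and spread more widely among the controls (coefficient of variation 43.3%) than among the JKD arrays (2.32%). It had 1.86, 2.48 and 2.81 on BLJ arrays, 0.878, 0.896 and 0.920 on JKD arrays, 0.963, 0.968 and 1.24 on SCR arrays and 1.17, 1.58 and 2.68 on control arrays. These values are in replicate order and rose with the replicate number within every group. On the deposited values SCR 2 lay just below SCR 1, at 0.958 against 0.978. The cause of this rise was not tested. The JKD arrays lay below every array of the other 3 groups, the BLJ arrays lay above every JKD and SCR array, and control 3 reached into the BLJ range. The means were 2.38 ± 0.479 for BLJ, 0.898 ± 0.0209 for JKD, 1.06 ± 0.161 for SCR and 1.81 ± 0.783 in the controls (SD, n = 3 each).

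AT1G14960 was higher in the BLJ line than in the JKD line, by 0.94 ± 0.17 on the log2 scale, with a 95% interval of 0.57 to 1.30 (limma adjusted p = 0.0155). The mean was 2.65 times as high, and every BLJ array exceeded every JKD array. Against the SCR line the BLJ line was higher by 0.80 ± 0.17, with an interval of 0.43 to 1.17 (limma adjusted p = 0.0379) and a ratio of means of 2.25. Both calls depended on single arrays. The call against the JKD line was lost without BLJ 2, BLJ 3, JKD 1, JKD 2 or JKD 3 (difference 0.83 to 1.04 over the 12 arrays left out in turn). The call against the SCR line was lost without BLJ 2, BLJ 3, JKD 1, JKD 2, JKD 3, SCR 1, SCR 2 or control 2 (0.70 to 0.91), and also without a filter (adjusted p = 0.0735), without the trend and robust options (adjusted p = 0.077) and with values under 1 set to 1 (adjusted p = 0.172); over all settings run, its adjusted p ranged from 0.000877 to 0.219. With values under 1 set to 1 the call against the JKD line was lost too (adjusted p = 0.124, in a range of 0.000204 to 0.124).

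Against the control, the means of the driven lines lay on both sides for AT1G14960. The BLJ line minus the control was 0.33 with a ratio of means of 1.32, and its arrays overlapped those of the control. This difference was 0.58 without control 3, 0.57 on the deposited values and 0.63 after each array was centred on its median. The JKD line minus the control was −0.61 ± 0.17, with a 95% interval of −0.97 to −0.24, and did not pass in limma's test (adjusted p = 0.076, in a range of 0.0255 to 0.498 over the settings). The JKD and control arrays did not overlap, and the JKD mean was 0.496 of the control mean. Same-numbered JKD and control arrays deviated together, and a fixed block for the replicate number gave an adjusted p of 0.0255. With a random block the difference did not pass (limma adjusted p = 0.0579). The difference also passed on the deposited values (−0.47, adjusted p = 0.0398), after median centring (−0.41, adjusted p = 0.0376) and without control 1 (−0.82, adjusted p = 0.0277). Without control 3 it was −0.38 (adjusted p = 0.126).

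The SCR line minus the control was −0.47 ± 0.17 for AT1G14960, with an interval of −0.84 to −0.10 (limma adjusted p = 0.196), and SCR 3 overlapped control 1. Without control 3 this difference was −0.24. The JKD line minus the SCR line was −0.13 ± 0.17, with an interval of −0.50 to 0.24 (limma adjusted p = 0.842), although the 3 JKD arrays lay below the 3 SCR arrays. In the order of levels from the BLJ line through the control and the SCR line to the JKD line, the calls were those of the BLJ line against the SCR and JKD lines. The SCR line against the control and the JKD line against the SCR line were not called, although the interval of the first excludes 0 and the arrays of the second do not overlap.

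Heat shock genes differed in level between the arrays, and AT1G14960 varied with them. The mean log2 level of the 5 measured heat shock genes, of 18 on the list, was 1.42, 1.04 and 1.73 on BLJ arrays, 0.655, 0.576 and 1.01 on JKD arrays, 0.836, 0.570 and 0.785 on SCR arrays and 0.625, 0.803 and 1.53 on control arrays. Over the 12 arrays, the log2 level of AT1G14960 followed this mean with r = 0.84 and rho = 0.73, and that of AT4G23670 with r = 0.77 and rho = 0.77. These are descriptions over arrays that share their groups. Control 3, high in heat shock genes, had 0.814 for AT4G23670, below every BLJ array. BLJ 2, the BLJ array with the lowest heat shock mean, had 1.35 for AT4G23670 and 2.48 for AT1G14960. Without control 3, BLJ 1 and BLJ 3, AT4G23670 had differences of 0.50, 0.45 and 0.44 for BLJ 2 against the control, the JKD line and the SCR line. Among the arrays left, BLJ 2 still had the highest heat shock mean, 1.04, with JKD 3 next at 1.01. The part of the heat shock level in that fit was not tested. AT1G14960 in that fit was higher on BLJ 2 than in the JKD line by 0.98 and the SCR line by 0.85. A single BLJ array gives no spread, so no test is given. In that fit its JKD minus control difference was −0.36 and its BLJ minus control difference 0.62.

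The root hair genes EXPA7 and EXPA18, expansins of growing hairs and the only 2 measured of 8 on that list, summed to 1.75 to 1.84 for BLJ, 1.55 to 1.57 for JKD, 1.42 to 1.53 for SCR and 1.61 to 2.18 in the controls, with the highest sum on control 3. Neither gene was called in any pair.

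Among the called markers of other lists, only AT3G21670 was called in the pairs in which AT1G14960 was called. The others were called only in the BLJ line against the control. Of the 5 cortex genes, AT3G21670, a nitrate transporter family gene, was higher in the BLJ line than in the JKD line by 0.18 (limma adjusted p = 0.018), than in the SCR line by 0.16 (adjusted p = 0.0432) and than in the control by 0.13 (adjusted p = 0.047). Its means were 1.09 ± 0.0759 for BLJ, 0.879 ± 0.0396 for JKD, 0.905 ± 0.0206 for SCR and 0.931 ± 0.0460 in the controls (SD, n = 3 each). AT1G09750, an aspartyl protease family gene of the cortex list, was higher in the BLJ line than in the control by 0.47 (adjusted p = 0.0164), with means of 2.15 ± 0.168 and 1.37 ± 0.330. The remaining cortex genes were not called in any pair. Their BLJ minus control differences were −0.08 for AT4G22160 (limma adjusted p = 0.0716), −0.02 for AT1G62500 and 0.04 for AT1G62510. Between the BLJ and JKD lines the median difference of the cortex list was −0.002, equal to that over all tested probe sets. OPS, a phloem gene and the only 1 of its list measured, was lower in the BLJ line than in the control, with a difference of −0.12 (adjusted p = 0.0372) and means of 0.730 ± 0.0254 and 0.853 ± 0.0679. No gene of the endodermis, xylem, root cap, lateral root, wound or heat shock lists, of which 2 to 5 each were measured, was called in any pair. The part of heat shock and of other cell types in the levels of AT4G23670 and AT1G14960 was not tested.

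**Figure D2:**
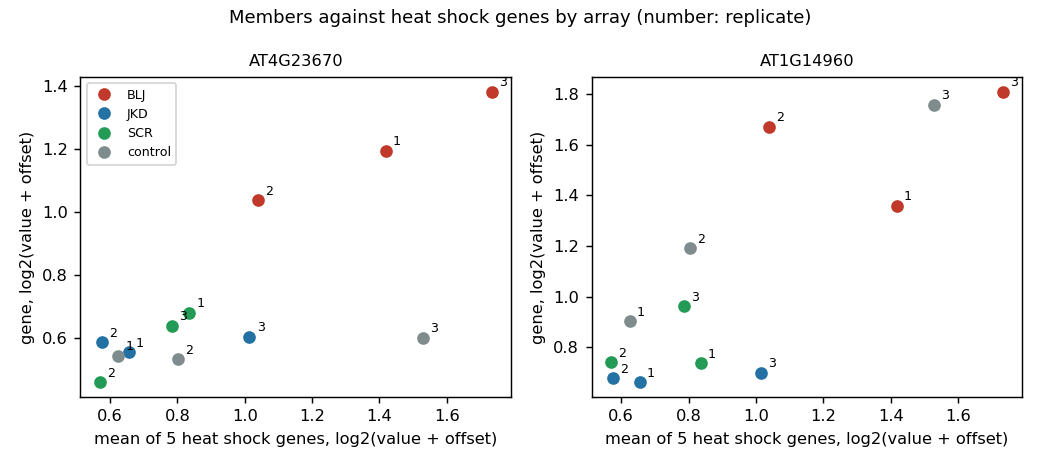
Log2 level of AT4G23670 (left) and AT1G14960 (right) on the vertical axes against the mean log2 level of 5 heat shock genes on the horizontal axes, both as log2(value + 0.703), for the 12 arrays. Numbers are replicates; control 3 lies at a heat shock mean of 1.53 with 0.60 for AT4G23670 and 1.76 for AT1G14960.

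AT1G14950, the neighbour of AT1G14960, was dim, with a mean of 0.760 over all arrays, just above the minimum of 0.735 that a probe set needed to be tested. It had 0.792, 0.738 and 0.817 on BLJ arrays, 0.712, 0.747 and 0.715 on JKD arrays, 0.764, 0.746 and 0.741 on SCR arrays and 0.812, 0.749 and 0.783 on control arrays. The groups lay within a narrow band, and the JKD arrays were just below the lowest control array. The JKD line minus the control was −0.06 ± 0.02 (95% interval −0.10 to −0.01, limma adjusted p = 0.179), the BLJ line minus the JKD line 0.06 ± 0.02 (adjusted p = 0.287), the BLJ line minus the SCR line 0.03 ± 0.02 (adjusted p = 0.517), the SCR line minus the control −0.03 ± 0.02 (adjusted p = 0.51) and the JKD line minus the SCR line −0.03 ± 0.02 (adjusted p = 0.747). The BLJ line minus the control was 0.00. The JKD line minus the control passed both on the deposited scale and with arrays centred on their medians (−0.13, adjusted p = 0.01, and −0.08, adjusted p = 0.0212).

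**Figure D3:**
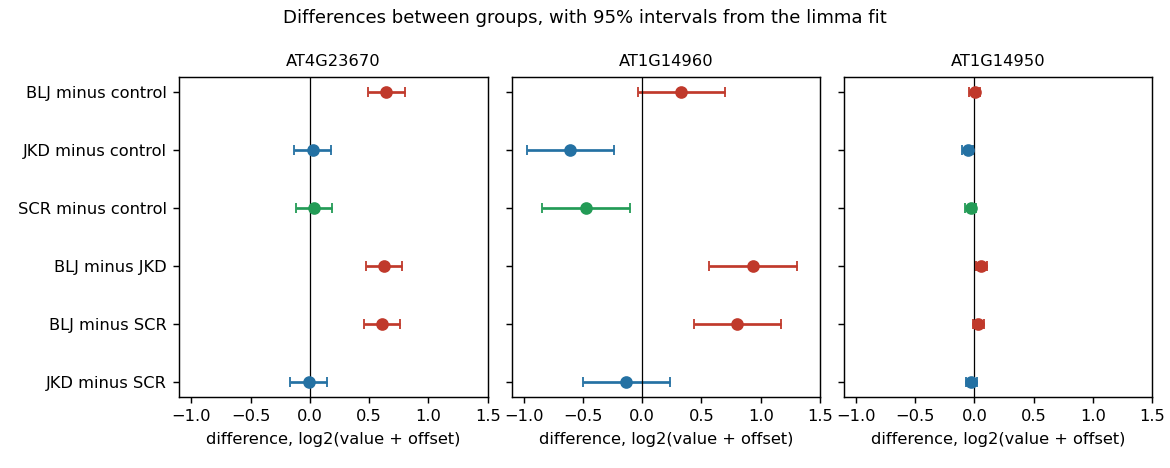
Differences between groups (horizontal axes, log2(value + 0.703)) for the 3 genes that were tested, with 95% intervals from limma's fit over 12 arrays; each row is a pair of groups, first minus second. For AT4G23670 the 3 rows with the BLJ line lie at 0.61 to 0.65 and the other 3 within 0.04 of 0. The intervals of these BLJ rows, and of every BLJ minus control row, are drawn as a description and carry no test.

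The other 3 members were too dim to be tested. Their means over all arrays were 0.689 for AT4G23680, 0.666 for AT1G14930 and 0.705 for AT1G14940, the last being nearest to the minimum from below. AT4G23680, next to AT4G23670 in the genome, had 0.698, 0.661 and 0.734 on BLJ arrays, 0.690, 0.661 and 0.693 on JKD arrays, 0.690, 0.692 and 0.700 on SCR arrays and 0.729, 0.664 and 0.661 on control arrays. All 4 groups of AT4G23680 overlapped, and its BLJ mean was 1.02 times the control mean. AT1G14930 had means of 0.657, 0.637, 0.684 and 0.689 in the BLJ, JKD and SCR lines and the controls. AT1G14940 had 0.710, 0.686, 0.709 and 0.714 in the same order. Differences between group means were at most 0.06 in size on the log2 scale for these 3 genes. At this level a difference in the transcript is not readily seen, so these values do not show that the genes are off or unchanged.

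The deposited values of the 4 dim genes followed the low end of their arrays. The 20th percentile of the deposited intensities was 0.654, 0.683 and 0.696 on BLJ arrays, 0.638, 0.716 and 0.662 on JKD arrays, 0.671, 0.763 and 0.670 on SCR arrays and 0.755, 0.766 and 0.756 on control arrays. Over the 12 arrays, the deposited value correlated with it at r = 0.95 for AT1G14930, 0.94 for AT1G14940, 0.88 for AT4G23680 and 0.84 for AT1G14950, against −0.29 for AT4G23670 and −0.03 for AT1G14960. The differences of the dim genes from the control on the deposited scale, −0.05 to −0.15, went along with the low end of the arrays, and after quantile normalization they shrank to −0.06 to 0.01.

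**Figure D4:**
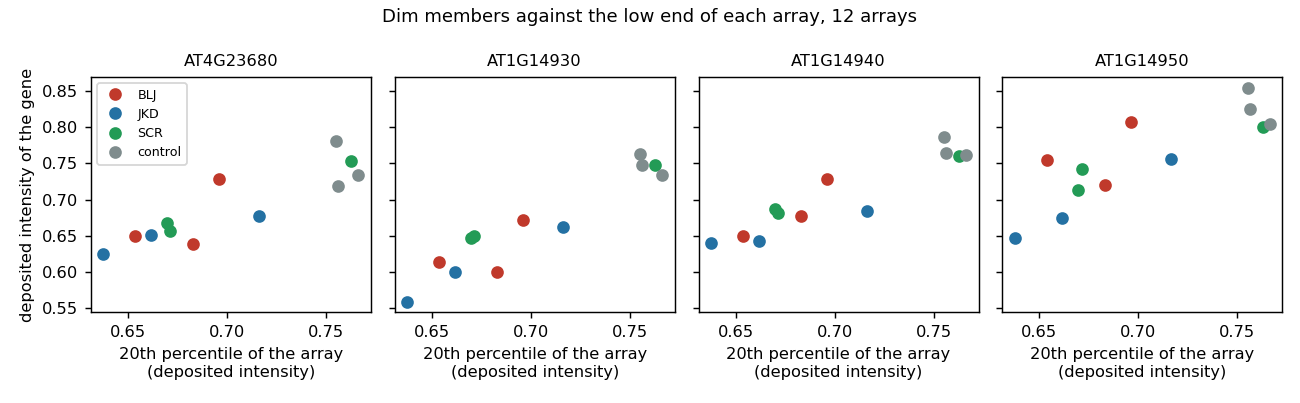
Deposited intensity (vertical axes) of the 4 dim genes against the 20th percentile of the deposited intensities of the same array (horizontal axes), 12 arrays coloured by group. The control arrays and SCR 2 lie at the upper right, with 20th percentiles of 0.755 to 0.766.

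Counted over the pairs of groups, 1 of the 3 tested members was called higher in the BLJ line than in the control (AT4G23670), where 4.26% of all tested probe sets were called; this contrast led to the choice, and nothing is read from the count. In the JKD line against the control 0 of 3 were called, where 2.74% of all were called. In that pair 2 members had an unadjusted limma p under 0.05, as did 3038 of all 15922 tested probe sets. In the SCR line against the control 0 of 3 were called (0.396% of all). There 1 member had an unadjusted limma p under 0.05, as did 2644 of all 15922. Between the BLJ and JKD lines 2 of 3 were called, both higher in the BLJ line (1.71% of all), and between the BLJ and SCR lines again 2 of 3 (1.55% of all); in both pairs these were AT4G23670, chosen for its BLJ level, and AT1G14960. Between the JKD and SCR lines 0 of 3 were called (0.49% of all), and 0 had an unadjusted limma p under 0.05, against 1667 of all 15922.

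The JKD line held the lowest group mean for 5 of the 6 members after quantile normalization, AT4G23670 being the exception with its lowest mean in the controls. Over all 22746 probe sets, the JKD line was lowest for 21.6%. On the deposited values it was lowest for 6 of 6, where it was lowest for 35.1% of all probe sets, and after median centring for 5 of 6. Among the 11 further genes of the family named below, it was lowest for 6 after quantile normalization. The JKD arrays lay below all control arrays for 3 of the 6 members, AT1G14930, AT1G14950 and AT1G14960, where 11% of all probe sets did so without a filter. The differences for the first 2 of these genes were −0.06 each and were not called. These counts rest on the same JKD and control arrays as the differences given above. Apart from AT1G14960, the 5 members lowest in the JKD line after quantile normalization are the dim genes. The deposited values of the dim genes followed the low end of the arrays, so these genes are not separate instances. The shares given beside the counts are over probe sets of all levels.

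A list of 28 major latex protein-like genes put together from general knowledge held 11 further genes with a single-gene probe set, of which 3 passed the filter: AT1G23120, AT1G30990 and AT5G28010. AT1G23120 had 1.04, 0.893 and 1.02 on BLJ arrays, 0.837, 0.832 and 0.882 on JKD arrays, 0.837, 0.750 and 0.820 on SCR arrays and 0.842, 0.851 and 0.954 on control arrays. The BLJ arrays lay above all JKD and SCR arrays and overlapped the controls. AT1G23120 was higher in the BLJ line than in the SCR line by 0.16 ± 0.04 (limma adjusted p = 0.0494), the only call among these 3 genes in the 6 pairs; it was lost without any 1 of 9 arrays, those other than BLJ 2, control 1 and control 3. The median difference of the 3 genes in that pair was 0.15, against 0.00 over all tested probe sets.

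AT5G28010 lay the other way, with means of 0.809 ± 0.0367 for BLJ, 0.847 ± 0.0205 for JKD, 0.922 ± 0.0267 for SCR and 0.929 ± 0.0747 in the controls, and did not pass in any pair. AT1G30990 had 0.957 ± 0.0409, 0.866 ± 0.0787, 0.789 ± 0.0647 and 1.05 ± 0.232 in the same order and did not pass either; its highest array was control 3, with 1.31. In the pairs against the control, the medians of the 3 genes were −0.07 for the BLJ, JKD and SCR lines, against 0.00, 0.01 and 0.00 over all tested probe sets. Among the 11 further genes, 1 was called lower in the BLJ line than in the control on the deposited values, and likewise without control 1. With median centring, and likewise with no filter, 1 was called higher in that pair. Against the SCR line the deposited values gave 1 higher and 1 lower in the BLJ line. Of the 8 dim genes of the list, AT3G26460 had BLJ levels of 0.781, 0.749 and 0.794, above all JKD (0.688 to 0.718), SCR (0.663 to 0.695) and control arrays (0.646 to 0.708). It was named after its values were seen. As a description, its BLJ line differences were 0.10 against the control, 0.07 against the JKD line and 0.09 against the SCR line. On the deposited values its BLJ and control arrays overlapped.

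The abscisic acid receptors and the PP2C phosphatases that they inhibit could not be set beside these genes, since 0 of 14 and 0 of 9 on the lists have a single-gene probe set in the table used. Of 12 abscisic acid response genes, AT2G41190 alone was measured, with means of 1.31 ± 0.122 for BLJ, 1.06 ± 0.140 for JKD, 1.26 ± 0.389 for SCR and 1.40 ± 0.137 in the controls, and it was not called in any pair.

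The 5 genes whose log2 profile over the 12 arrays was most like that of AT4G23670 were AT2G03370, a glycosyltransferase of family GT61 (r = 0.97, rho = 0.84), AT1G80180 (r = 0.95, rho = 0.71), AT5G42250, an alcohol dehydrogenase family gene (r = 0.94, rho = 0.64), AT1G79160 (r = 0.94, rho = 0.73) and AT1G22900, a dirigent family gene (r = 0.94, rho = 0.65). After subtraction of the group means, r was 0.75 to 0.83 for these 5. AT5G42250 averaged 2.12 ± 0.214 for BLJ, 1.53 ± 0.0481 for JKD, 1.58 ± 0.113 for SCR and 1.66 ± 0.0356 in the controls. AT2G03370 averaged 1.08 ± 0.0766 in the BLJ line and 0.872 to 0.889 in the other groups. The 5 genes were picked for likeness, so their BLJ levels are a description.

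The genes most like AT1G14960 were AT3G56760 (r = 0.98, rho = 0.99) and AT1G10140 (r = 0.97, rho = 0.95), with r of 0.94 and 0.91 after subtraction of the group means. AT1G10140 averaged 4.39 ± 0.282 for BLJ, 2.46 ± 0.0182 for JKD, 2.71 ± 0.311 for SCR and 3.44 ± 1.03 in the controls, the same order of groups as AT1G14960 and likewise with its widest spread in the controls. AT3G56760 averaged 1.83 ± 0.128, 1.40 ± 0.0389, 1.52 ± 0.0676 and 1.71 ± 0.161 in that order. For AT1G14950 they were AT1G19000 (r = 0.90) and UGT71C2 (r = 0.88). The 2 members with the largest differences, AT4G23670 and AT1G14960, had r = 0.69 and rho = 0.48 over the 12 arrays, and r = 0.30 within groups. The r values above belong to genes picked for the highest r, so a lower r between these members was fixed by that choice.

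**Figure D5:**
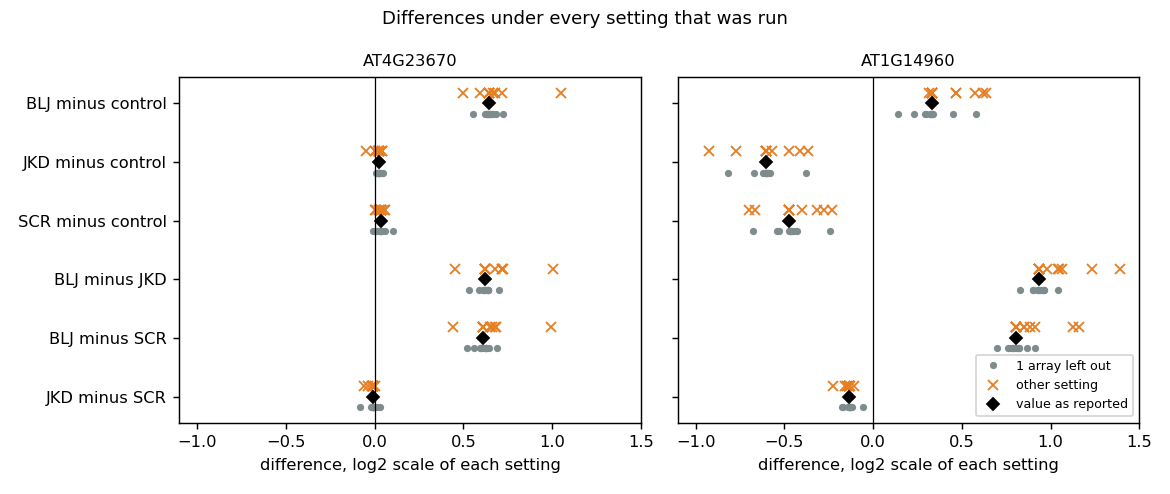
Differences of AT4G23670 (left) and AT1G14960 (right) for the 6 pairs of groups under each setting, on the log2 scale of that setting (horizontal axes). Diamonds are the reported values, dots the fits with 1 of the 12 arrays left out and crosses the other settings; the BLJ rows of AT4G23670 stay between 0.44 and 1.05.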

How the data were processed

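The deposited values are intensities on a linear scale, 1 for each probe set on each array, running from 0.513 to 44.2 with 66.1% of the values under 1 once 55 control probe sets are left out. Per the submitters' processing notes the intensity values were made with MAS5; the version, any scaling or centring and which of 2 labelling protocols an array had are not stated there or in the labels. Columns were matched to samples by name, and 0 were left unused.

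Values were quantile-normalized between arrays and given as log2(value + 0.703), where the added value is their 20th percentile. Probe sets in the lowest 30% by mean were dropped. The remaining 15922 of 22746 were fitted in limma 3.58.1 (R 4.3.3) on all 12 arrays with 1 mean for each group, using the trend and robust settings of eBayes and p-values adjusted by Benjamini-Hochberg. Called means an adjusted p under 0.05, and adjusted p-values are from this test. The number of arrays, 3 a group, limits the precision.

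Gene names come from the platform's annotation, updated by gene number through RefSeq's TAIR10.1 table; sequences were not used here, so cross-hybridization between relatives was not examined and promoter motifs were not searched. Named genes are the members, up to 2 called genes of a list in each direction and pair (or up to 2 as values where none was called) and, by Pearson's r over the arrays, the 5 genes most like AT4G23670 and the 2 most like each other tested member. The members, lists, settings and tests were chosen with earlier results of these data known. The deviations of same-numbered arrays from their group means correlated at −0.19 to 0.62, above 0.1 in 12 of 18 cases. They did so for all 3 numbers between the JKD line and the control alone (0.28, 0.32 and 0.39), and the blocked values are given there for AT1G14960. Alternatives were other scalings, offsets and filters, plain eBayes, replicate blocks, pairs of groups alone and arrays left out.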

Additional observations from a re-analysis of the deposited data

How the results depend on the processing

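Each count of called members was recomputed under 23 alternatives, and of 138 such counts 114 did not move. With deposited values, and likewise with median-centred ones, 2 members were called higher in the BLJ line than in the control and 2 lower in the JKD line than in the control, against 1 and 0 as reported. The replicate number as a fixed block gave 1 member lower in the JKD line than in the control, AT1G14960; no other call of a member changed under either replicate block. Between the BLJ and JKD lines, 1 of 2 calls was left with values under 1 set to 1. Between the BLJ and SCR lines, 1 was left with values under 1 set to 1, with no filter and without the trend and robust options. With each array left out in turn, the counts ran from 1 to 2 for the BLJ line against the control, the JKD line and the SCR line, from 0 to 1 for the JKD line against the control, and were 0 for the other pairs. The cause of these moves was not tested. The counts in pairs with the BLJ line include AT4G23670, which was chosen for its BLJ level. Over the whole table, the number of called probe sets ranged from 34 to 2943 for the BLJ line against the control (678 as reported), from 2 to 4199 for the JKD line against the control (437), from 0 to 276 for the SCR line against the control (63), from 78 to 529 between the BLJ and JKD lines (273), from 35 to 639 between the BLJ and SCR lines (247) and from 20 to 143 between the JKD and SCR lines (78). Median centring moved the split of the BLJ line against the control to 2366 higher and 577 lower, from 290 and 388 as reported, and that of the JKD line to 3442 and 757, from 138 and 299. Dim members lie near the low end of the arrays, which limits what their values can show.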

Other observations

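Among the neighbours on chromosome 1, AT1G14930 and AT1G14950 varied together within groups, with r = 0.94 over the 12 arrays after the group means were subtracted, while AT1G14960 did not follow them (r = −0.09 with AT1G14930, −0.14 with AT1G14950 and 0.06 with AT1G14940). On chromosome 4, AT4G23670 and AT4G23680 had r = 0.49 within groups and 0.34 over all arrays. These values are across arrays that share their groups, and the dim genes move with the low end of the arrays.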
